A study of Trachemys scripta with 4 samples.

Results

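The genes studied here make cholesterol, fatty acids and sphingolipids, the main lipids of the myelin sheath, or regulate and move these lipids. They were chosen by symbol from a list of 45 genes in 4 groups: cholesterol synthesis, fatty acid synthesis, sphingolipid synthesis, and regulators and transport. Of these, 40 had a row among the 15289 genes of the table: 14 of 18 cholesterol genes, all 9 fatty acid genes, all 10 sphingolipid genes, and 7 of 8 regulators and transport genes. FDPS, FDFT1, LSS, CYP51A1 and APOE were not analysed here. All 40 genes had at least 1 TPM in at least 2 columns and so were among the 15100 genes analysed. TPM is a measure of transcript abundance in which reads are divided by gene length and each column then sums to 1000000, so that levels can be compared between genes. The RNA came from the brachial and sacral plexus of *T. scripta* embryos at st.21 and at st.19, with 1 sample per stage and 2 columns per sample, called replicate 1 and replicate 2. The eggs came from adult females collected in the field, given oxytocin to induce laying, and were incubated at 28 °C. The paper describes no other treatment of the embryos.

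Cholesterol cannot easily enter the peripheral nerve from the blood in mammals, and the myelinating Schwann cell makes most of its own. The pathway builds squalene from acetyl-CoA through mevalonate and then turns squalene into cholesterol. SREBP transcription factors switch on these enzymes when SCAP carries them from the endoplasmic reticulum to the Golgi, and INSIG proteins hold them back when sterols are plentiful. Myelin is also rich in galactosylceramide and sulfatide, sphingolipids with very long fatty acid chains. The roles given for each gene are those known from mammals.

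The reads behind the values were recovered from the prior count that the authors had added before the logarithm, and came to 2229177 and 2129599 reads on genes at st.21 and to 4353821 and 4241655 reads at st.19. The reads of the 40 genes differed between the columns of a stage by less than sampling noise, with a chi-square per gene of 0.0893 at st.21 and 0.179 at st.19, where independent sampling gives about 1. Each stage was therefore treated as a single sample, and no p-value between the stages is given. An rRNA gene, LOC117869916, held 0.145% and 0.317% of the TPM at st.21 and 18.9% and 44.2% at st.19. The other genes share what is left, and in log2 TPM the median gene stood 0.53 above its replicate 2 value in replicate 1 of st.19, so nearly every st.19 value below is higher in replicate 1. The median log2 change of all genes, st.21 minus st.19, was 0.06 as deposited and −0.47 when TPM were summed over protein-coding genes only. Changes are therefore given as log2 differences, the st.21 mean over its columns less the st.19 mean, with the change of the median gene taken off. A 95% exact binomial (Clopper-Pearson) interval from the reads of the replicate 1 columns is given with them. It covers counting error only and says nothing about differences between embryos.

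Of the 40 genes, 5 (12.5%) were more than 2-fold higher at st.21, that is above 1 on the log2 scale, against 15.8% of all genes. Another 7 (17.5%) were more than 2-fold lower, against 10.7% of all genes. The counting interval lay above 0 for 10 genes (25%) and below 0 for 18 genes (45%), against 28.3% and 24.3% of all genes, and included 0 for 12. An interval narrows with more reads, and the median level of the 40 genes was at percentile 73.1 of all genes, so these shares are not a like-for-like comparison. The median change was −0.32 over the 40 genes, and 0 over all genes by construction. By group, the median was −0.67 for cholesterol, −0.49 for fatty acid, −0.25 for sphingolipid, and 0.60 for regulators and transport. In bulk RNA, fewer cells of a type and less RNA per cell cannot be told apart.

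**Figure D1:**
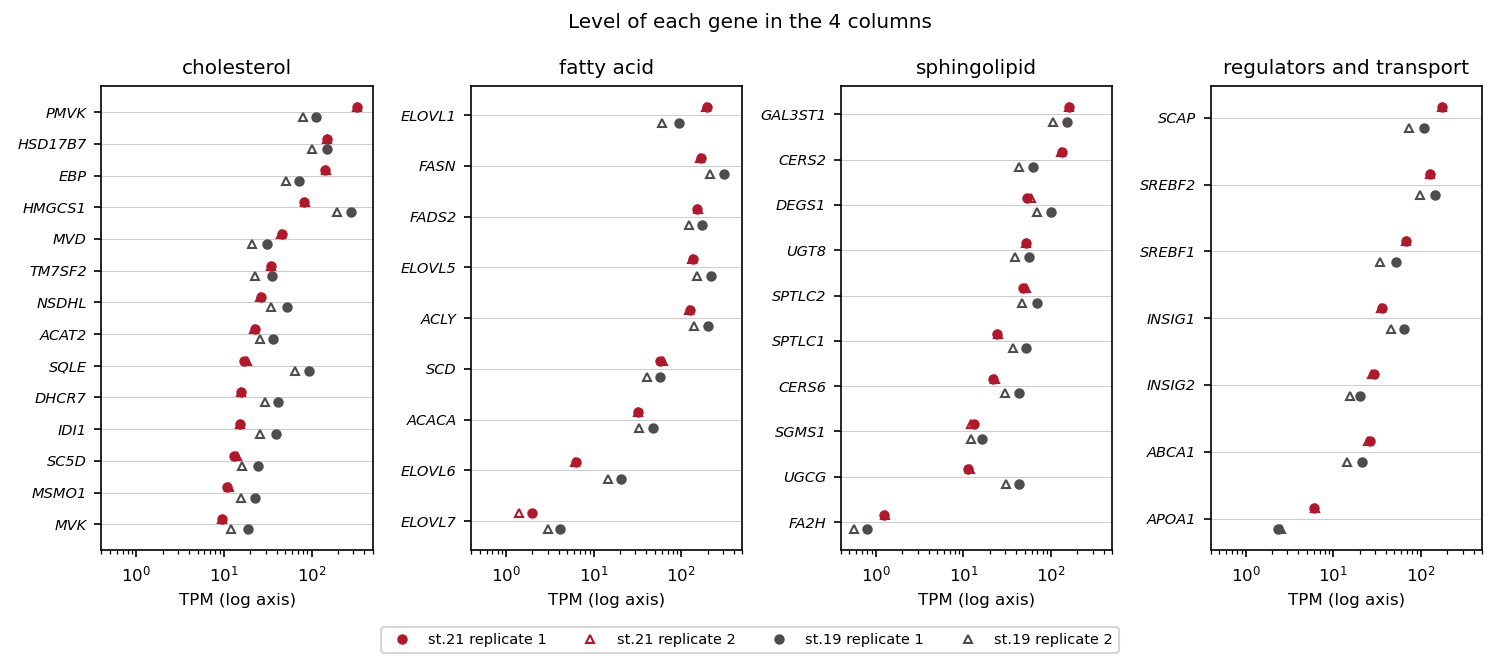
TPM (log axis) of each gene in the 4 columns, by group, with the st.21 columns in red above the st.19 columns in grey (circles, replicate 1; triangles, replicate 2). PMVK was highest at st.21 with 335 and 327 TPM, and FA2H lowest with 1.24 and 1.27 TPM.

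The levels covered a wide range at each stage. They ran from 1.24 to 335 TPM in replicate 1 of st.21, with a median of 35 TPM, and from 0.785 to 309 TPM in replicate 1 of st.19, with a median of 52.6 TPM. In order of mean TPM at st.21, PMVK was first of the 40 genes, ELOVL1 the second, SCAP the third and FASN the fourth. At st.19 FASN was first, HMGCS1 the second, ELOVL5 the third and ACLY the fourth. HMGCS1 stood at rank 13 and ELOVL5 at rank 9 at st.21, and PMVK at rank 9 and ELOVL1 at rank 13 at st.19.

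**Figure D2:**
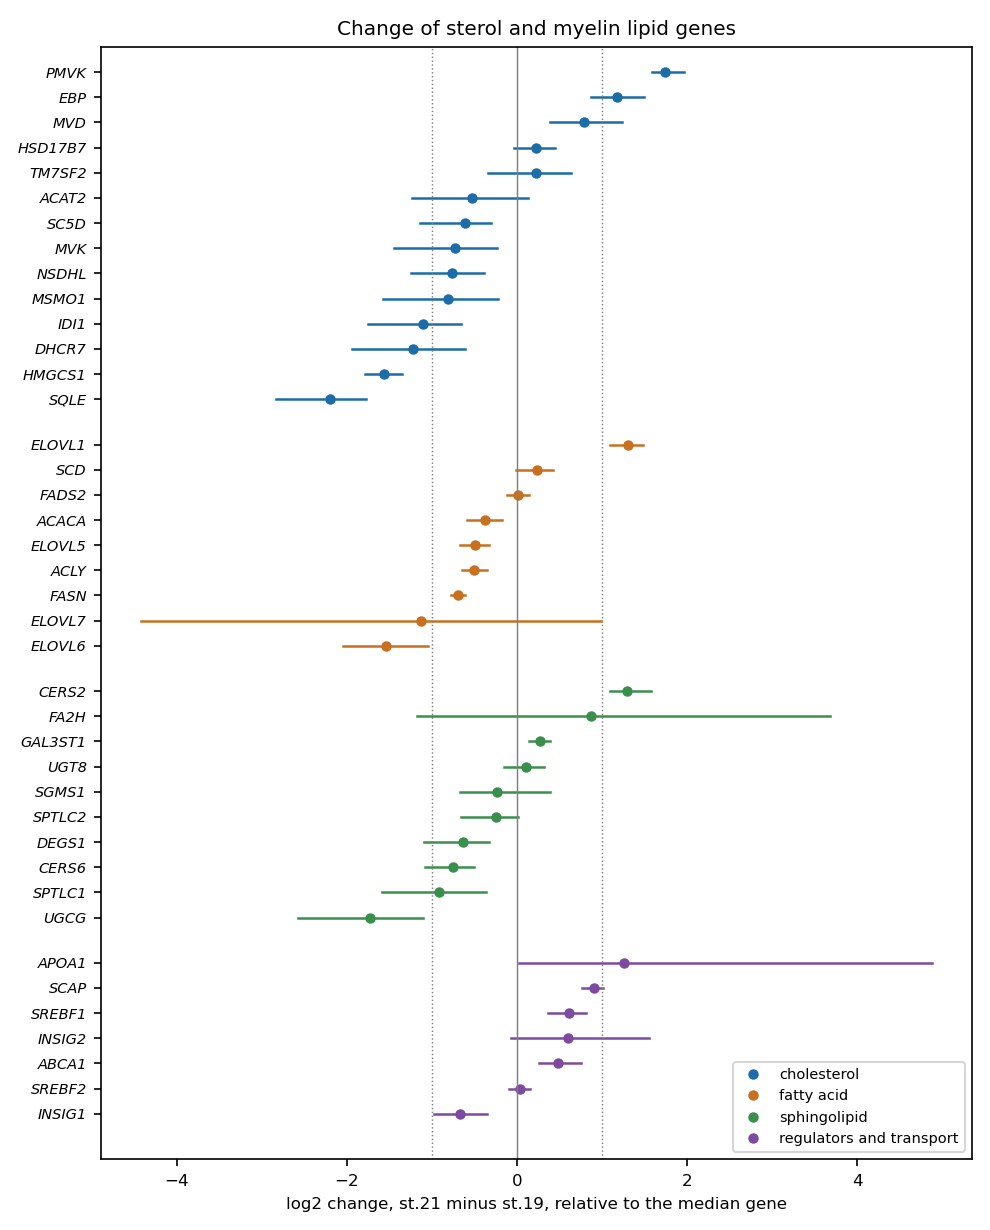
Log2 change of each gene, st.21 minus st.19, relative to the median gene (points), with the 95% counting interval of the replicate 1 columns (lines) and the 2-fold limits (dotted). SQLE was lowest at −2.20 and PMVK highest at 1.74, and the widest intervals are those of FA2H, ELOVL7 and APOA1, which had few reads.

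In the cholesterol group, 2 of the 14 genes (14.3%) were more than 2-fold higher at st.21, against 15.8% of all genes. Another 4 (28.6%) were more than 2-fold lower, against 10.7%. The interval lay below 0 for 8 (57.1%) and above 0 for 3 (21.4%), against 24.3% and 28.3% of all genes. The lower genes were HMGCS1, IDI1, SQLE and DHCR7. HMGCS1, which makes the HMG-CoA that starts the mevalonate pathway, had 82.8 and 83.5 TPM at st.21, against 282 and 198 TPM at st.19. Its change was −1.57 (interval −1.79 to −1.36), which leaves 0.338 of the st.19 level. SQLE, which oxidises squalene and controls the flow into sterols, had 17.0 and 18.1 TPM at st.21, against 92.6 and 64.4 TPM at st.19. The change of −2.20 (interval −2.84 to −1.78) was the lowest of all 40 genes. Both st.21 columns were below both st.19 columns for each of these genes. The columns of a stage are not separate samples, so this sets 1 sample against 1 sample. The share of all genes with columns separated in this way is not given here.

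Steps in the middle and at the end of the route were lower too. IDI1, which isomerises the isoprene unit, had 15.3 and 15.5 TPM at st.21, against 39.4 and 25.6 TPM at st.19, a change of −1.11 (interval −1.75 to −0.66). DHCR7, which reduces a double bond of the sterol ring, had 15.6 TPM in both st.21 columns, against 41.6 and 29.3 TPM at st.19, a change of −1.22 (interval −1.94 to −0.62). MSMO1, which removes methyl groups from the sterol ring, had 10.9 and 11.3 TPM at st.21, against 22.5 and 15.6 TPM at st.19, a change of −0.82 (interval −1.58 to −0.23). NSDHL, a partner of MSMO1 in that step, changed by −0.76, the mevalonate kinase gene MVK by −0.73 and the sterol desaturase gene SC5D by −0.62, each with an interval below 0. ACAT2, the thiolase that joins the first acetyl-CoA units, changed by −0.53, and its interval (−1.23 to 0.13) included 0. MVK overlaps MMAB in the annotation, so reads in the overlap could belong to either gene.

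Other enzymes of the same route were higher. PMVK, the kinase that follows MVK, had 335 and 327 TPM at st.21, against 113 and 79.7 TPM at st.19, a change of 1.74 (interval 1.58 to 1.96). MVD, the decarboxylase after it, had 46.3 and 45.2 TPM at st.21, against 30.7 and 21.0 TPM at st.19, a change of 0.79 (interval 0.38 to 1.23). With a protein-coding total MVD came to 0.32, below that interval. EBP, a sterol isomerase, had 142 and 145 TPM at st.21, against 72.8 and 51.5 TPM at st.19, a change of 1.17 (interval 0.87 to 1.49). The stages did not overlap in TPM for any of these genes, which again sets 1 sample against 1 sample and adds nothing to the intervals. The share of all genes without such overlap is not given here. Changes were small for HSD17B7 (0.23, interval −0.04 to 0.45), which also acts in methyl group removal, and TM7SF2 (0.22, interval −0.34 to 0.63), a sterol reductase. Both turned negative with a protein-coding total, to −0.24 and −0.25, and HSD17B7 came to −0.05 after quantile normalization. The group therefore held genes that went both ways, while the medians of its earlier and later parts were close. Whether the parts differed was not tested. The median was −0.63 over the 6 genes before squalene and −0.69 over the 8 genes from SQLE on. Each part held 1 gene more than 2-fold higher and 2 more than 2-fold lower. These were 16.7% and 33.3% of the earlier part and 12.5% and 25% of the later, against 15.8% and 10.7% of all genes. However, EBP, the higher gene of the later part, came to 0.97 after quantile normalization and 0.70 with a protein-coding total.

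Within a column, the ratio of a gene pair does not depend on how the column was scaled. The pairs given here and below were chosen after their values were seen. The TPM ratio of PMVK to HMGCS1 was 4.04 and 3.91 at st.21, against 0.403 and 0.404 at st.19. The ratio of EBP to SQLE was 8.37 and 8.01 at st.21, against 0.786 and 0.799 at st.19. On the log2 scale these ratios differed between the stages by 3.34 (interval 3.05 to 3.63) and by 3.46 (interval 2.86 to 4.09) in the replicate 1 reads.

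Further genes of lipid synthesis and transport, 54 symbols in all, were listed beside the 40. Of the 43 with a row, 7 (16.3%) were more than 2-fold higher and 7 (16.3%) more than 2-fold lower, against 15.8% and 10.7% of all genes. The median change of the 43 was −0.08. Of these, PLTP, a phospholipid transfer protein, was highest with 138 and 135 TPM at st.21, against 42.3 and 30.1 TPM at st.19, a change of 1.87 (interval 1.57 to 2.31). LRP1, a receptor for lipoproteins, followed with 1.67 and ELOVL3, a fatty acid elongase, with 1.47. Among the lowest were the sterol exporter ABCG1 (−1.65, 4 against 37 reads in the replicate 1 columns) and the elongase ELOVL2 (−1.42), which overlaps SMIM13 in the annotation.

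Of the 9 fatty acid genes, ELOVL1 was more than 2-fold higher at st.21 and ELOVL6 and ELOVL7 more than 2-fold lower. These were 11.1% and 22.2% of the group, against 15.8% and 10.7% of all genes. The genes that make palmitate from citrate were lower by less than 2-fold relative to the median gene. FASN, the fatty acid synthase, had 166 and 165 TPM at st.21, against 309 and 211.9 TPM at st.19, a change of −0.69 (interval −0.78 to −0.61). ACLY, which supplies cytosolic acetyl-CoA, had 125 and 123 TPM at st.21, against 204 and 140 TPM at st.19, a change of −0.51 (interval −0.65 to −0.36). ACACA, the carboxylase that makes malonyl-CoA, changed by −0.38 (interval −0.59 to −0.18). All 3 genes had intervals below 0. FASN came to −1.03 after quantile normalization and −1.16 with a protein-coding total, both past 2-fold. In the same settings ACLY came to −0.81 and −0.97, and ACACA to −0.41 and −0.85. FASN overlaps LOC117887806 and ACACA overlaps C18H17orf78 in the annotation.

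The elongases, which lengthen fatty acids, went different ways. ELOVL1 makes very long saturated chains, such as those in myelin sphingolipids. It had 197 and 190 TPM at st.21, against 93.5 and 60.4 TPM at st.19, a change of 1.31 (interval 1.09 to 1.48). ELOVL6 lengthens palmitate to stearate. It had 6.26 and 6.18 TPM at st.21, against 20.4 and 14.7 TPM at st.19, a change of −1.54 (interval −2.05 to −1.05). The ratio of ELOVL1 to ELOVL6 was 31.5 and 30.8 at st.21, against 4.57 and 4.10 at st.19, a difference of 2.82 on the log2 scale (interval 2.29 to 3.37). ELOVL5, which acts on polyunsaturated chains, had 134 TPM in both st.21 columns, against 219 and 150 TPM at st.19, a change of −0.49 (interval −0.67 to −0.33). ELOVL7 had only 2 and 1 reads at st.21, against 11 reads in each st.19 column, and its change of −1.13 had an interval of −4.42 to 0.99. Without replicate 2 of st.21 it came to −0.88, under 2-fold.

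The desaturase genes changed little. SCD, which makes monounsaturated chains, had 57.6 and 61.3 TPM at st.21, against 57.5 and 40.7 TPM at st.19, a change of 0.24 (interval −0.01 to 0.42). FADS2, which desaturates polyunsaturated chains, had 153 and 157 TPM at st.21, against 175 and 123 TPM at st.19, a change of 0.02 (interval −0.12 to 0.14). With a protein-coding total they came to −0.23 and −0.45, and FADS2 also turned to −0.28 after quantile normalization.

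Of the 10 sphingolipid genes, CERS2 was more than 2-fold higher at st.21 and UGCG more than 2-fold lower. Each was 10% of the group, against 15.8% and 10.7% of all genes. CERS2, the ceramide synthase for very long chains, had 134 and 131 TPM at st.21, against 61.9 and 43.3 TPM at st.19, a change of 1.30 (interval 1.09 to 1.57). CERS6, the synthase for shorter chains, had 21.7 and 22.7 TPM at st.21, against 43.1 and 30.01 TPM at st.19, a change of −0.76 (interval −1.08 to −0.51). Their ratio was 6.18 and 5.75 at st.21, against 1.44 in both st.19 columns, a difference of 2.12 on the log2 scale (interval 1.74 to 2.50). ELOVL1 and CERS2, which in mammals act one after the other on very long chains, were the highest of their groups, and ELOVL6 and UGCG the lowest. With a protein-coding total ELOVL1 came to 0.84 and CERS2 to 0.83, both under 2-fold.

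Ceramide is made into galactosylceramide by UGT8 and into glucosylceramide by UGCG. UGT8 had 51.6 and 52.3 TPM at st.21, against 55.9 and 38.4 TPM at st.19, a change of 0.10 (interval −0.15 to 0.32). UGCG had 11.4 and 11.8 TPM at st.21, against 43.6 and 30.9 TPM at st.19, a change of −1.73 (interval −2.57 to −1.11). The ratio of UGT8 to UGCG was 4.54 and 4.44 at st.21, against 1.28 and 1.24 at st.19, a difference of 1.89 on the log2 scale (interval 1.15 to 2.70). GAL3ST1, which adds sulfate to make sulfatide, had 160 and 159 TPM at st.21, against 153 and 105 TPM at st.19, a change of 0.27 (interval 0.14 to 0.39). Its ratio to UGT8 was 3.10 and 3.04 at st.21, against 2.74 in both st.19 columns, a difference of 0.18 (interval −0.09 to 0.45). With a protein-coding total UGT8 turned to −0.36 and GAL3ST1 to −0.20, and GAL3ST1 came to −0.01 after quantile normalization. FA2H, which hydroxylates the fatty acid of myelin galactolipids, had 4 reads in each of the 4 columns, and its change of 0.86 had an interval of −1.17 to 3.68.

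The remaining sphingolipid genes were lower or little changed. SPTLC1 and SPTLC2 encode subunits of serine palmitoyltransferase, the first enzyme of sphingolipid synthesis. SPTLC2 had 47.9 and 51.6 TPM at st.21, against 68.4 and 47.1 TPM at st.19, a change of −0.25 (interval −0.66 to 0.01). SPTLC1 changed by −0.92 (interval −1.59 to −0.37). DEGS1, which puts the double bond into ceramide, changed by −0.64 (interval −1.09 to −0.33). SGMS1, which makes sphingomyelin, changed by −0.24 (interval −0.67 to 0.39).

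The 7 regulators and transport genes were the only group with a positive median, and INSIG1 was the single gene below 0. That median is the value of INSIG2, whose interval included 0. Only APOA1 (14.3% of the group), with few reads, was more than 2-fold higher, against 15.8% of all genes. None was more than 2-fold lower, against 10.7% of all genes. With a protein-coding total the group median came to 0.14, SREBF1 to 0.15, SCAP to 0.44 and ABCA1 to 0.01. SREBF2, the SREBP of cholesterol synthesis, had 127 TPM in both st.21 columns, against 144 and 98.4 TPM at st.19, a change of 0.03 (interval −0.10 to 0.15). It turned to −0.43 with a protein-coding total and −0.22 after quantile normalization. SREBF1, the SREBP of fatty acid synthesis, had 67.0 and 67.7 TPM at st.21, against 51.5 and 34.5 TPM at st.19, a change of 0.61 (interval 0.36 to 0.81). The ratio of SREBF1 to SREBF2 was 0.526 and 0.533 at st.21, against 0.358 and 0.351 at st.19. SCAP had 175 and 173 TPM at st.21, against 109 and 72.5 TPM at st.19, a change of 0.91 (interval 0.77 to 1.01).

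The INSIG genes went opposite ways. INSIG1, itself switched on by SREBP, had 35.8 and 35.5 TPM at st.21, against 64.9 and 45.9 TPM at st.19, a change of −0.68 (interval −0.98 to −0.35). INSIG2 changed by 0.60, with an interval of −0.07 to 1.55 that included 0. Their ratio, INSIG2 to INSIG1, was 0.810 and 0.779 at st.21, against 0.315 and 0.340 at st.19, a difference of 1.41 on the log2 scale (interval 0.53 to 2.27). ABCA1, which exports cholesterol to lipoproteins, had 26.3 and 24.8 TPM at st.21, against 21.3 and 14.5 TPM at st.19, a change of 0.48 (interval 0.26 to 0.75). APOA1, the acceptor of that cholesterol, had 6 reads in each st.21 column, against 3 and 6 reads at st.19, and its change of 1.26 had an interval of 0.03 to 4.88. That interval rests on the replicate 1 columns, and without replicate 1 of st.19 the change was 0.93, under 2-fold.

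Markers of several cell types also differed between the samples. Of 11 myelinating Schwann cell genes with a row, 10 were higher than the median gene and 1, S100B, was lower. Their summed level was 4549 to 4566 TPM at st.21, against 1497 to 2187 TPM at st.19. Of 9 neuron genes, 7 were lower and 2 higher, with summed levels of 3721 to 3804 TPM at st.21, against 4492 to 6444 TPM at st.19. Skeletal muscle (7 genes), macrophage (7), fibroblast and perineurium (7), endothelium (7) and adipocyte (6) genes were all higher than the median gene. By construction, so were 7550 of all 15100 genes analysed. The counting interval included 0 for 4 of the adipocyte genes (ADIPOQ, PPARG, CEBPA and LPL) and 1 of the fibroblast and perineurium genes (PDGFRA), and lay above 0 for the others. Summed levels of the muscle genes were 2506 to 2538 TPM at st.21, against 49.0 to 74.5 TPM at st.19. Those of the fibroblast and perineurium genes were 27650 to 27980 TPM at st.21, against 4051 to 5963 TPM at st.19. Adipocytes also make much lipid, and their genes summed to 73.3 to 73.9 TPM at st.21, against 33.2 to 48.7 TPM at st.19, with ADIPOQ at 4 and 3 reads at st.21 and 1 read in each st.19 column. Of the hepatocyte list only FGB had a row, with 0 reads in both st.21 columns, against 8 and 9 reads at st.19. Of the epidermis list EPCAM had 0 and 2 reads at st.21, against 7 and 8 reads at st.19, and TP63 had 1 and 0 reads at st.21, against 5 reads in each st.19 column. The part of these cell types in the changes of the lipid genes was not tested. The paper states that the nerves were small and hard to dissect, so that nearby tissue could have been included and altered the expression values.

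**Figure D3:**
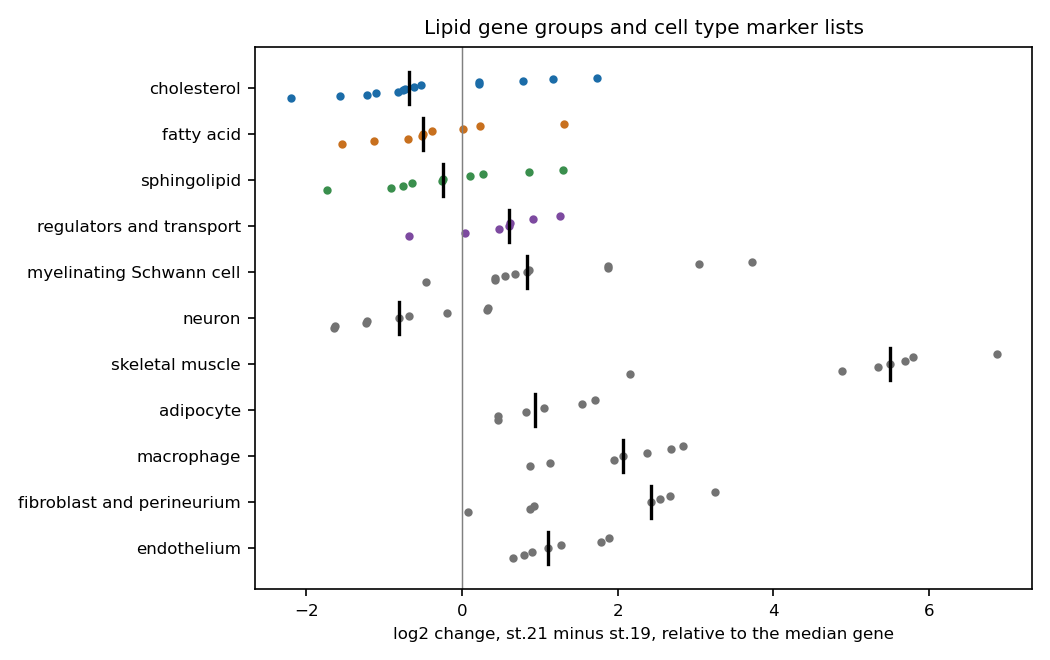
Log2 change, st.21 minus st.19, relative to the median gene, of each lipid gene by group (coloured points) and of each cell type marker (grey points), with the median of each list as a black bar. The cholesterol median was −0.67, with genes from −2.20 to 1.74, and the neuron median was −0.80, with genes from −1.64 to 0.34. The other marker lists with at least 3 genes analysed have positive medians from 0.83 for myelinating Schwann cells to 5.49 for skeletal muscle.

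The position of a gene in the genome moved with its change. Genes on chromosomes 16 and 24 of the CAS_Tse_1.0 assembly had a median change of 0.73 (596 genes) and 0.73 (229 genes), and 38.4% of them on each were more than 2-fold higher. PMVK (chr16:9744328-9747704) and EBP (chr16:7241144-7245050) lie on chromosome 16 and CERS2 (chr24:6856416-6904946) on chromosome 24. Relative to the median gene of their own chromosome, a setting chosen after seeing the data, PMVK changed by 1.01, EBP by 0.44 and CERS2 by 0.56. ELOVL1 (chr8:108744063-108766867) lies on chromosome 8, where the median was −0.06, and its change came to 1.36 on that scale. Of the most reduced genes, SQLE (chr2:262409661-262427054) came to −2.03, HMGCS1 (chr6:27036643-27055365) to −1.34, UGCG (chr6:115275540-115304506) to −1.50 and ELOVL6 (chr5:32478271-32616376) to −1.33. In all, 3 of the 40 genes were then more than 2-fold higher (PMVK, ELOVL1 and SCAP) and 6 lower. SC5D (−1.005) was among these 6, and IDI1 (−0.934) and ELOVL7 (−0.907) were not. Over all 15100 genes analysed, 2184 were higher and 1560 lower on that scale.

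**Figure D4:**
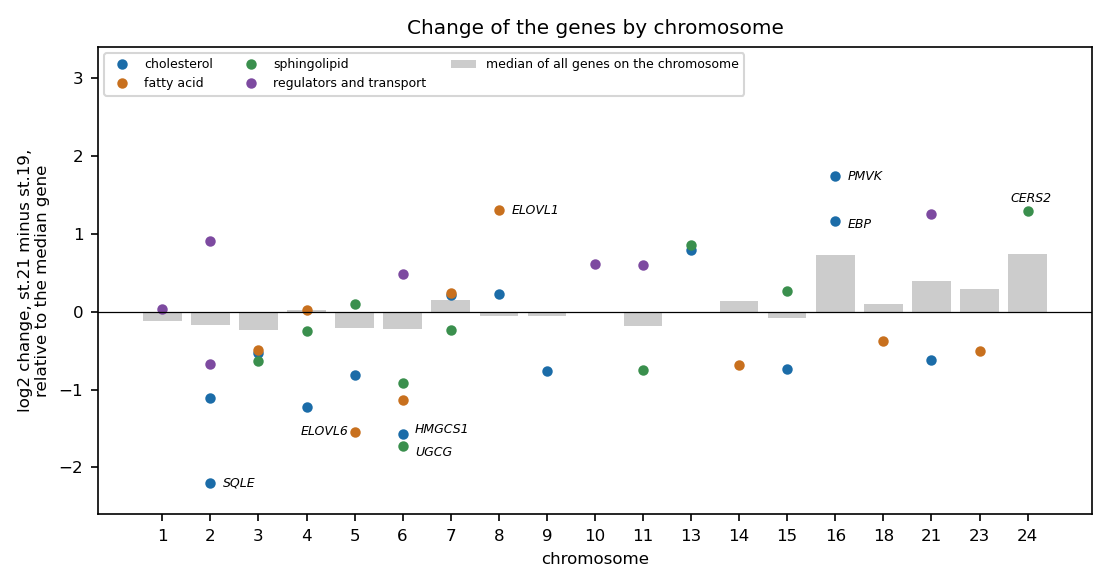
Log2 change, st.21 minus st.19, relative to the median gene, for each lipid gene by chromosome (points, coloured by group), over the median of all genes analysed on that chromosome (grey bars), for the chromosomes that hold at least 1 of the 40 genes. PMVK, EBP and CERS2 lie on chromosomes 16 and 24, where the median gene was 0.73 higher.

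The length of the gene on the chromosome moved with the change as well. All genes with a span were put in order of span and split evenly into 4 classes. The median change was 0.40 in the 3770 genes with the shortest spans, up to 11280 nt, and −0.25 in the 3769 genes with the longest, from 69324 nt. The median span was 3907 nt for the 5 lipid genes more than 2-fold higher and 25110 nt for the 7 more than 2-fold lower. It was longest, 35128 nt, for the 28 lipid genes between these limits. Over all genes the same medians were 15136 nt, 36936 nt and 30460 nt, longest for the lower genes. Across all 15077 genes with a span, Spearman's rho between span and change was −0.25, and across the 40 genes it was −0.19. Genes are not independent replicates, and all values share the same libraries. Relative to the median of each span class, a setting chosen after seeing the data, 5 of the 40 lipid genes were more than 2-fold higher and 8 lower. These 5 were not the same genes as before. EBP (0.77) and APOA1 (0.855) fell under 2-fold, and SCAP (1.15) and FA2H (1.11, with few reads) passed it. DEGS1 (−1.04) was added to the lower genes. Over all 15077 genes with a span, 2085 were higher and 1706 lower on that scale. The group medians were then −0.68 for cholesterol, −0.38 for fatty acid, 0.00 for sphingolipid, and 0.51 for regulators and transport. Whether position or span had a part in the changes was not tested further.

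**Figure D5:**
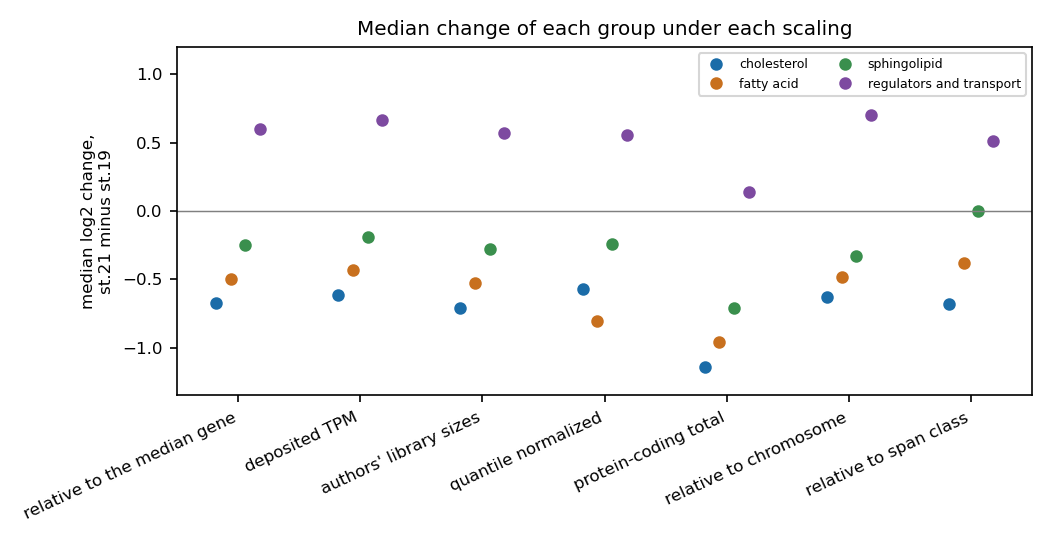
Median log2 change, st.21 minus st.19, of each group under each scaling (colour, group). The cholesterol and fatty acid medians lie below 0 and the regulators and transport median above 0 under all 7 scalings shown. The regulators and transport median was only 0.14 with a protein-coding total, and the sphingolipid median came to 0.00 relative to the span class.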

How the data were processed

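RNA-seq of peripheral nerve was analysed for 1 sample at st.21 and 1 at st.19, each with 2 columns assigned from their names and the labels (the st.21 names carry an extra digit that the sources used here do not explain). The authors aligned single-end reads to the CAS_Tse_1.0 assembly using HISAT2, obtained gene counts by featureCounts, kept genes by CPM in edgeR 3.42.4 and deposited log2 TPM values that include a prior count. Per the labels the library kit was stranded, and the strand setting of the counting is not given in the sources used here. Symbols were matched to the RefSeq table of that assembly (15266 found, 23 not).

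Whole reads were recovered by finding, for each gene, the length up to 150000 nt that makes all 4 columns whole (tolerance 1e-07 of a read for 1 read). A single length was found for all 15289 genes (100%), and the procedure was tested on simulated data. A gene was analysed where 2 or more columns reached 1 TPM. The prior count is part of each TPM and understates the change of genes with few reads.

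The replicate-based count test of the study was not used, since each stage is 1 sample. All lipid genes present were named, and of the further pathway genes the 3 largest changes each way, except for results on a few genes that are not reported here. Members and lists were chosen with earlier results of these data known. Alternatives were other scalings (effective library sizes read from the prior counts, quantile normalization, a total over protein-coding genes, and medians by chromosome or span), log2(TPM + 1), other filters, a 1.5-fold limit, leaving out each column, limma on the columns at an adjusted p-value under 0.01 with and without a replicate block, and a binomial test on reads. A promoter search was not run. Tools were limma 3.58.1 (R 4.3.3) and, in Python 3.11.15, pandas 2.3.3, numpy 2.4.6, matplotlib 3.10.9 and scipy 1.17.1.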

Additional observations from a re-analysis of the deposited data

How the results depend on the processing

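No lipid gene past 2-fold changed direction under any setting tried. The 5 higher and 7 lower lipid genes became 1 (PMVK) and 16 with a protein-coding total and 10 and 16 with a 1.5-fold limit, and 3 were higher relative to the chromosome median. Leaving out each column gave 4 to 5 higher and 6 to 7 lower, with APOA1 and ELOVL7 the genes lost. The binomial test on reads called 4 and 6, without APOA1 and ELOVL7. Taking all 4 columns as separate samples, limma called 5 higher and 7 lower, and the replicate block left these counts at 5 and 7 and gave 2361 higher and 1559 lower over all genes, against 2336 and 1556 without it. The replicate differences of the stages correlated across 15100 genes (Pearson's r 0.28). Replicate 2 held more of its TPM in LOC117869916 than replicate 1 at both stages, 0.317% against 0.145% at st.21 and 44.2% against 18.9% at st.19. No source used here says what columns of the same number share. Over all genes the 2390 higher and 1623 lower became 4162 higher and 3461 lower with a 1.5-fold limit, 7623 in all. They became 1045 higher and 3590 lower with a protein-coding total, and 1869 and 992 by the binomial test. The median of the lipid genes, −0.32, came to −0.26 as deposited, −0.35 by the authors' effective library sizes, −0.38 after quantile normalization, −0.78 by the protein-coding total, −0.28 relative to the chromosome and −0.072 relative to the span class, and was −0.35 to −0.32 when a column was left out. The cause of the shift with span was not tested. Depth limits FA2H, ELOVL7 and APOA1, which had at most 11 reads in a column. With 1 sample per stage, no difference was set against the spread between embryos.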
